A study of Zea mays with 6 samples.

Results

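In maize leaves, 40 of the 44303 annotated genes carried 10 or more annotated transcripts, and they held 464 of the 77341 transcripts. The 40 genes were chosen by counting the transcript IDs listed under each gene ID, so no expression value entered the choice. They were examined in 3 leaf libraries of the edf1-D mutant and 3 of the wild type (WT), both in W22, a maize inbred line. In maize nomenclature a final D denotes dominance of an allele. All plants of both groups share the W22 background. Per the labels, the plants were field-grown, and their leaves were sampled at 25 days after germination. Nothing in the labels tells whether a replicate stands for its own plant, a pool or a repeat of the same material. P-values therefore measure only how far these libraries spread, which may be technical. In whole-leaf RNA, fewer cells that express a gene and less RNA per cell cannot be told apart.

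A gene gives rise to several transcripts, its isoforms, when introns are spliced in different ways or when transcription starts or ends at different sites. In plants the retention of an intron is a common form of alternative splicing, and many such transcripts do not encode the full protein and can be degraded by nonsense-mediated decay. A gene with many annotated isoforms need not use all of them in one tissue, because an annotation gathers transcripts seen across tissues and stages. The share of the leading isoform, the one with the largest part of a gene's transcripts, is a simple measure of how concentrated the output of a gene is.

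The files give no gene names, and 0 of their IDs were found in the RefSeq gene list used here, so the 40 genes are given by ID and no function is assigned to them. The same limit applies to leaf marker genes and to the gene altered in edf1-D, which were not checked here. Exon structures and sequences of the isoforms were not used here either. An isoform is therefore given only by its transcript number, T001 and upwards, within the gene. No header states the unit. Values were read as FPKM, that is, as scaled by transcript length and to 1000000 sequenced fragments. Sums of FPKM over all transcripts ran from 472269 to 686251 in the edf1-D libraries and from 416517 to 607906 in the WT libraries, and sequencing depth is unknown.

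Of the 40 genes, 23 had exactly 10 annotated transcripts, 6 had 11, 5 had 12 and 6 had 13 or more. At the lower limit of the choice, the 23 genes with 10 transcripts had a median mean expression of 7.0 FPKM and the 44 genes with 9 transcripts, just outside, had 5.43 FPKM. The largest transcript sets were those of Zm00001eb334630 with 26 transcripts, Zm00001eb411600 with 24 and Zm00001eb191790 with 16.

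Most genes with 10 or more transcripts were expressed in leaf. A total above 0 was found in every library for 37 of the 40, and 36 reached 0.5 FPKM in at least 3 libraries, the minimum for a test of the total. This was 90% of the set, against 80.8% of the 2562 genes with 5 to 9 transcripts, 67.5% of the 12747 genes with 2 to 4 and 27.7% of the 28954 genes with 1. The share of genes that could be tested was thus higher with more annotated transcripts. A total sums over all transcripts of a gene, and an annotation gathers transcripts that were seen. Part of this order can thus come from the classes themselves, and it was not tested. Mean totals of the 40 genes had a median of 8.05 FPKM and reached 571 FPKM, with 28 genes at 5 FPKM or more and 10 at 20 FPKM or more.

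Expression within the set was dominated by Zm00001eb229550, a gene with 12 annotated transcripts. Its total was 501, 642 and 386 FPKM in edf1-D replicates 1, 2 and 3, against 644, 798 and 452 FPKM in WT replicates 1, 2 and 3. Replicate 3 was the lowest in both genotypes, and the genotypes overlapped on these deposited values. Replicate 3 also had the lowest sum of FPKM over all transcripts in each genotype, 472269 in edf1-D and 416517 in WT. The values are not scaled to equal sums, so neither the low replicate 3 nor the overlap is read as particular to this gene. Whether the overlap remains after such scaling was not tested. The second most abundant was Zm00001eb334630, with 134, 124 and 104 FPKM in edf1-D and 146, 164 and 138 FPKM in WT. Here every edf1-D library lay below every WT library, though the total did not pass the test between genotypes. The third, Zm00001eb000620, reached 116, 115 and 102 FPKM in edf1-D and 95.7, 100.4 and 79.0 FPKM in WT, and its edf1-D libraries all lay above its WT libraries. It did not pass the test on the deposited values.

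At the other end, 4 of the 40 genes stayed under the minimum for a test. These 4 were chosen for naming after their values were seen. Zm00001eb224600 was listed at 0 for each of its 10 transcripts in all 6 libraries. Zm00001eb214750 had a single non-zero value, 0.13 FPKM for isoform T011 in WT replicate 2. Zm00001eb109440 ranged from 0 to 0.25 FPKM in edf1-D and from 0 to 0.19 FPKM in WT. Zm00001eb160480 ranged from 0.06 to 0.13 FPKM in edf1-D and from 0.06 to 0.41 FPKM in WT. A further 8 genes were tested for their total but were too low for isoform tests, with a mean under 5 FPKM. As the depth is unknown, a value listed at 0 may be a transcript below detection or a failed estimate.

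**Figure D1:**
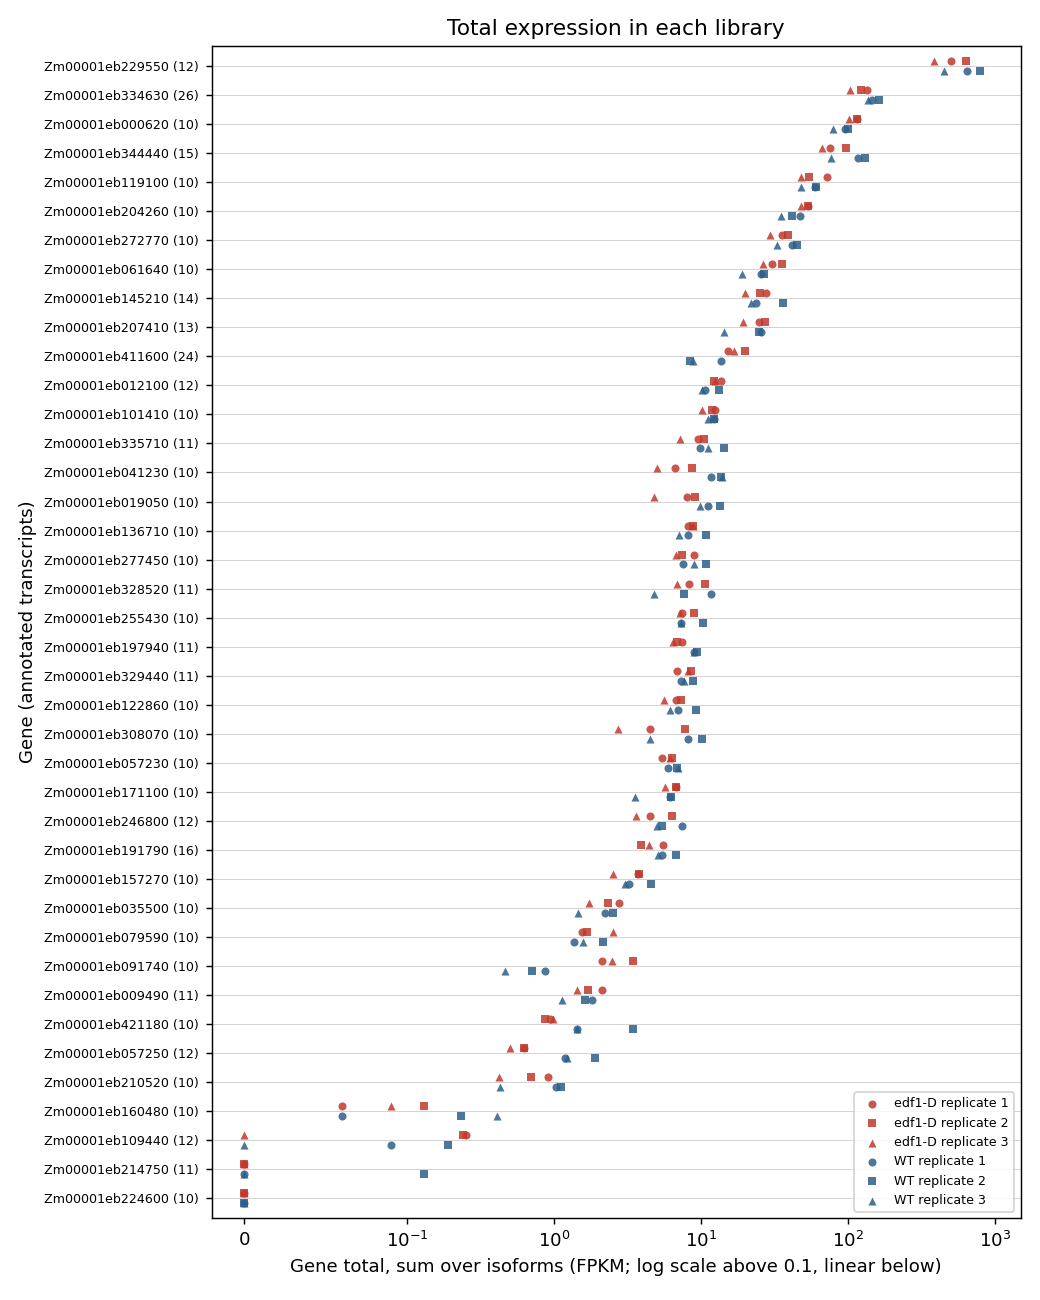
Gene totals in FPKM (log scale above 0.1) for the 40 genes, ordered by mean, with 1 point per library, red for edf1-D and blue for WT, and the number of annotated transcripts in parentheses. Zm00001eb229550 lies at the top with 386 to 642 FPKM in edf1-D and 452 to 798 FPKM in WT, and 4 genes at the bottom stay under 0.5 FPKM.

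Far fewer isoforms were detected than were annotated. Of the 464 isoforms, 367 were above 0 in at least 1 library, 132 were above 0 in all 6, and 97 (20.9%) were listed at 0 everywhere. At 0.5 FPKM or more in at least 3 libraries, the level called detected here, 162 isoforms remained (34.9%). This gave a median of 3.5 detected isoforms per gene. The range was 0 to 17, and none of the genes (0 of 40) had every annotated isoform detected. In 7 genes no isoform was detected by this measure, although 3 of these 7 had totals that could be tested, and in 6 genes 1 isoform was. The median was 6 detected isoforms with the minimum set to 0.1 FPKM and 3 with 1 FPKM, so the number depends on the minimum.

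The number detected went with the level of the gene. The 10 genes at 20 FPKM or more had a median of 7 detected isoforms (60.8% of those annotated), with at least 6 in each gene. The 18 genes from 5 to under 20 FPKM had a median of 4.5 (36.5%), and the 12 genes under 5 FPKM a median of 0 (5.56%). An isoform of a low gene has to hold a large share to reach 0.5 FPKM, so these medians do not compare splicing between the levels. Within the 28 genes open to isoform tests (a mean total of 5 FPKM or more, and no library under 1 FPKM), 155 of 338 isoforms were detected. Per library these 28 genes had 150, 149 and 143 isoforms at 0.5 FPKM or more in edf1-D replicates 1 to 3, against 152, 160 and 144 in WT replicates 1 to 3. The genotypes overlapped.

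The 3 genes with the most transcripts differed in how many isoforms were detected. Their totals differed as well, so these counts do not compare how many isoforms they used. Zm00001eb334630 had 25 of its 26 isoforms above 0 in at least 1 library and 17 detected, the most of any of the 40 genes. Zm00001eb411600 had 23 of 24 above 0 and 9 detected, at a total of 15.3, 19.8 and 16.8 FPKM in edf1-D and 13.8, 8.43 and 8.87 FPKM in WT. Zm00001eb191790 had 15 of 16 above 0 but 3 detected, at a total of 5.52, 3.91 and 4.39 FPKM in edf1-D and 5.42, 6.75 and 5.08 FPKM in WT. By contrast Zm00001eb229550, with the highest total, had 8 of 12 isoforms above 0 and 6 detected. In Zm00001eb119100, at 48.0 to 72.3 FPKM in edf1-D and 48.0 to 60.4 FPKM in WT, 6 of 10 isoforms were detected and the other 4 were listed at 0 in every library.

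**Figure D2:**
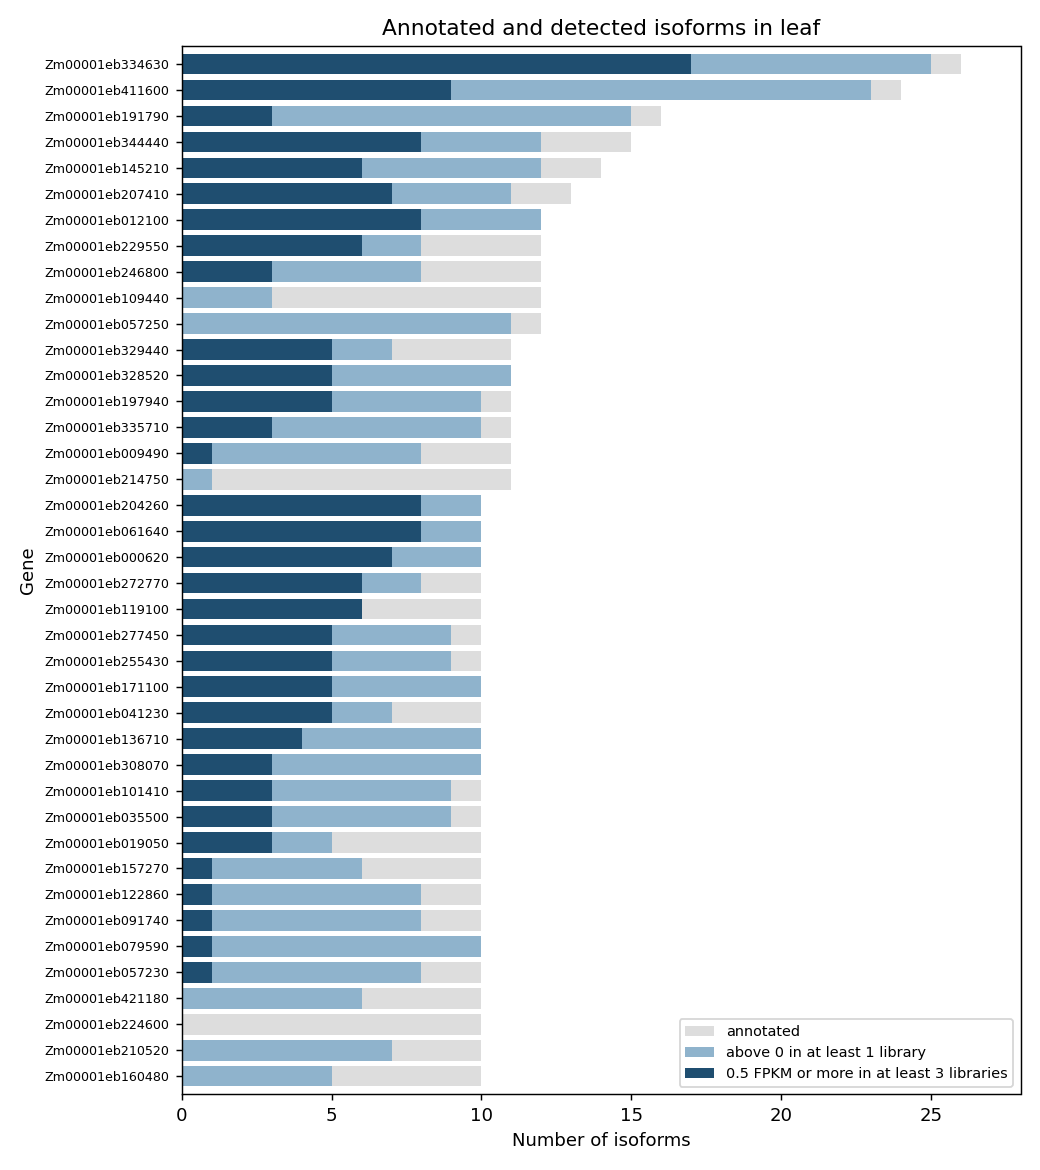
Number of isoforms of each of the 40 genes that are annotated (grey), above 0 in at least 1 library (light blue) and at 0.5 FPKM or more in at least 3 libraries (dark blue). Zm00001eb334630 has 17 detected of 26 annotated, and 7 genes have no dark bar.

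Output was spread over several isoforms. In the 28 genes, the leading isoform, taken as the one with the highest mean share over the 6 libraries, held a median of 44.6% of the gene total, between 14.7% and 82.5%. It held at least 50% in 9 genes, under 50% in 19 and under 25% in 7. The second isoform held a median of 22.5%, and the leading 2 together 68.3%. The effective number of isoforms, the exponential of the Shannon entropy of the shares, is the number of equally used isoforms that would give the same spread. Its median was 3.99, with a range of 1.91 to 10.4, and a median of 3 isoforms per gene held a mean share of at least 10%.

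Genes with fewer annotated transcripts were more concentrated. With the same minimum levels, the leading isoform held a median of 97.8% in 2275 genes with 2 transcripts, 77.4% in 682 genes with 5, 62.3% in 43 genes with 8 and 52.9% in 25 genes with 9. The effective number of isoforms over the same classes was 1.10, 1.85, 2.53 and 2.81, against 3.99 with 10 or more. The number of annotated transcripts bounds both measures. The effective number cannot exceed it, and the leading share cannot fall below an equal split. Part of this order can thus come from the classes themselves, and it is given as a description, without a test.

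The leading isoform was seldom the first in the annotation. T001 led in 3 of the 28 genes (10.7%), against 15.8% of genes with 5 to 9 transcripts and 42.1% of genes with 2 to 4. T001 is a smaller part of the annotated isoforms where a gene has more of them. These classes are thus unlike, and nothing about T001 itself is drawn from the order. An isoform numbered T010 or above led in 7 of the 28. These were T010 in Zm00001eb122860, Zm00001eb119100 and Zm00001eb041230, T011 in Zm00001eb329440, T013 in Zm00001eb344440, T022 in Zm00001eb411600 and T026 in Zm00001eb334630. The files do not say how transcripts were numbered.

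**Figure D3:**
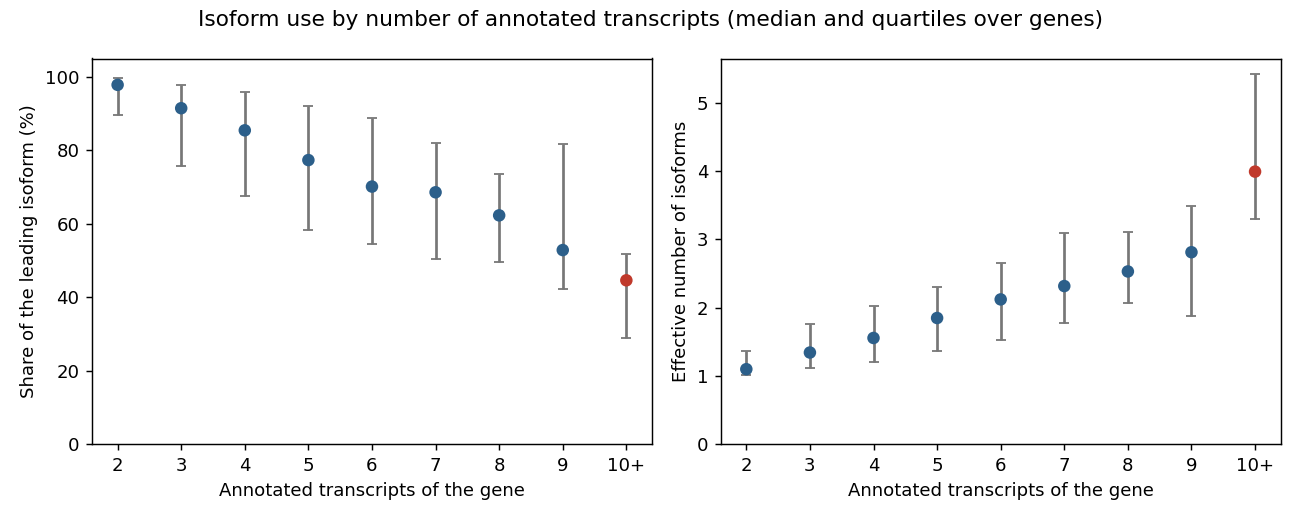
Median (point) and quartiles (bars) over genes of the share of the leading isoform in percent (left) and of the effective number of isoforms (right), by the number of annotated transcripts, with 10 or more in red. The median share is 97.8% at 2 transcripts and 44.6% at 10 or more, and the effective number 1.10 and 3.99.

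Among the 28 genes, the 3 with the highest leading share were Zm00001eb122860, Zm00001eb272770 and Zm00001eb229550. T010 of Zm00001eb122860 held 78.9%, 87.7% and 68.7% of the total in edf1-D replicates 1 to 3, against 91.9%, 78.6% and 89.3% in WT replicates 1 to 3. The genotypes overlapped. T002 of Zm00001eb272770 held 62.9%, 79.4% and 65.9% in edf1-D, against 71.8%, 78.8% and 83.1% in WT, also with overlap. Zm00001eb229550 divided nearly its whole output between 2 isoforms in a ratio that moved little between libraries. Its T003 held 71.0% ± 2.53 in edf1-D and 71.4% ± 0.874 in WT, and its T010 26.9% ± 2.29 in edf1-D and 26.6% ± 1.11 in WT (SD, n = 3 each). The other isoforms of this gene held at most 2.04% each in any library.

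The lowest leading shares among the 28 genes were those of Zm00001eb191790, Zm00001eb328520 and Zm00001eb411600. In Zm00001eb191790 the leading T003 held 13.8%, 9.46% and 13.4% in edf1-D, against 22.9%, 13.3% and 15.4% in WT, and the effective number of isoforms was 10.4. Zm00001eb411600 had the same effective number, 10.4, with T022 at 16.1%, 21.0% and 17.9% in edf1-D, against 22.7%, 16.2% and 28.8% in WT. These genes held many isoforms at low and similar shares. Zm00001eb328520 had a lower effective number, 5.62, and its isoforms changed places between libraries of 1 genotype. Its T007 held 23.4%, 12.6% and 39.3% in edf1-D, against 1.54%, 0% and 41.9% in WT. Its T009 held 0%, 18.6% and 7.92% in edf1-D, against 29.0%, 33.2% and 0% in WT.

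In Zm00001eb334630 the leading isoforms T026 and T010 were close. T026 stood at 28.9, 31.7 and 32.6 FPKM in edf1-D, against 29.7, 29.8 and 26.3 FPKM in WT, and T010 at 27.3, 25.6 and 19.7 FPKM in edf1-D, against 29.6, 44.7 and 30.8 FPKM in WT. As shares, T026 held 21.5%, 25.7% and 31.4% in edf1-D, against 20.3%, 18.2% and 19.2% in WT. Every edf1-D library was above every WT library in this share, but it did not pass the test (log2 ratio to the gene's other isoforms 0.55 ± 0.27, SE; limma adjusted p = 0.596). A total of 7 isoforms of this gene held a mean share of at least 5%. Its effective number of isoforms was 9.88, near that of Zm00001eb191790 and Zm00001eb411600, which had fewer isoforms detected.

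Whether the same isoform led in every library depended on the gene. In 11 of the 28 genes the same isoform led in all 6 libraries (39.3%). This held for 64.0% of the 25 genes with 9 transcripts, 73.9% of genes with 5 to 9 and 88.2% of those with 2 to 4. The classes differ in leading share as well, so nothing particular to the 28 genes is drawn from this order. The same isoform led throughout in 8 of the 10 genes at 20 FPKM or more, and in 3 of the 18 genes from 5 to under 20 FPKM. In 12 genes 2 isoforms took the lead in turn, in 3 genes 3 did and in 2 genes, Zm00001eb197940 and Zm00001eb328520, 4 did. No gene (0 of 28) had 1 leading isoform in all 3 edf1-D libraries and another in all 3 WT libraries. Among genes with 5 to 9 transcripts 0.693% did (8 genes), and among those with 2 to 4 transcripts 0.473% did (22 genes).

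The share of the leading isoform varied widely between replicates. Its SD over the 3 libraries of a genotype had a median over the 28 genes of 5.96 percentage points in edf1-D and 6.35 in WT, against 5.35 and 5.36 in genes with 5 to 9 transcripts and 2.21 and 2.32 in genes with 2 to 4. The median absolute difference between edf1-D and WT was 7.35 percentage points in the 28 genes. It was 3.30 in genes with 9 transcripts, 4.04 in genes with 5 to 9, 1.71 in genes with 2 to 4 and 2.11 over all 5832 genes that met the same minimum. A wide difference between genotypes thus stood beside a wide spread within them. Zm00001eb057230 shows the extreme, with T002 at 54.7%, 93.1% and 58.8% in edf1-D, against 16.4%, 77.7% and 81.4% in WT. It was chosen after its values were seen.

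**Figure D4:**
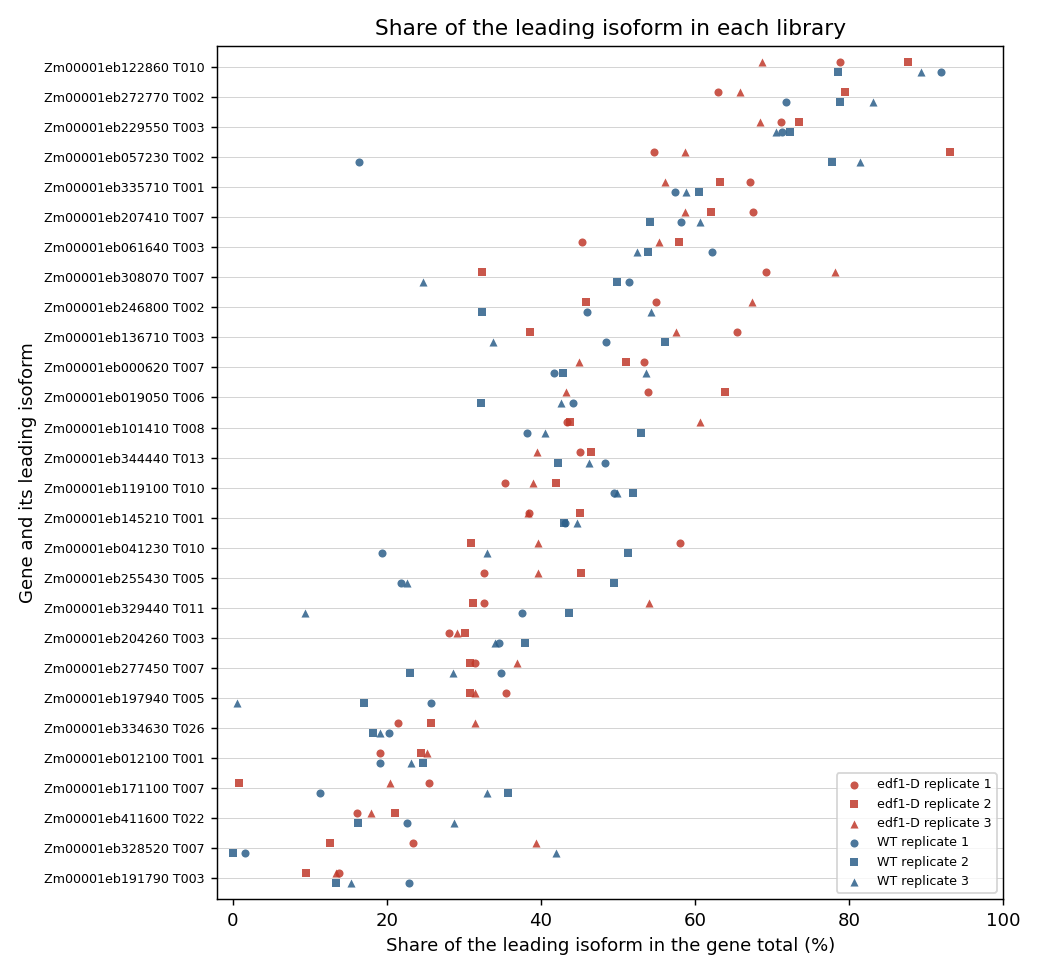
Share of the leading isoform in the gene total, in percent, for the 28 genes, ordered by their mean share, with 1 point per library, red for edf1-D and blue for WT. The genotypes overlap in most genes, and within a genotype some genes, such as Zm00001eb057230 with 16.4% to 81.4% in WT, span a wide range.

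Few totals of these genes passed the test between edf1-D and WT leaves. Of the 36 genes tested, 1 was higher in edf1-D and 0 were lower (limma, Benjamini-Hochberg adjusted p under 0.05 over all 18719 genes tested), 2.78% of the set. Over all tested genes 3.64% were called, 1.45% as higher and 2.19% as lower, so the set lay near the background. At an unadjusted p under 0.05 there were 2 higher and 4 lower genes of the 36 (16.7%), against 19.5% of all tested genes. The median log2 fold change was -0.11 in the 36 genes and -0.12 over all tested genes, with a median SE of 0.21 and 0.22. The libraries of both genotypes did not overlap in 10 of the 36 genes (27.8%), 4 higher and 6 lower in edf1-D, against 26.3% of all tested genes, 8.37% higher and 18.0% lower.

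The called gene was Zm00001eb091740, which has 10 annotated transcripts. Its total was 2.11, 3.45 and 2.49 FPKM in edf1-D, against 0.86, 0.70 and 0.46 FPKM in WT. All edf1-D libraries lay above all WT libraries. The mean was 2.68 ± 0.691 FPKM in edf1-D and 0.673 ± 0.201 FPKM in WT (SD, n = 3 each). The log2 fold change was 1.13 ± 0.21 on the log2(FPKM + 1) scale (SE; limma adjusted p = 0.0258), which understates the change of so low a gene. The call was lost whenever 1 of the 6 libraries was left out, with adjusted p from 0.0535 to 0.0926 and log2 fold changes from 0.98 to 1.24.

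Its isoforms were too low for the isoform test. T010 carried most of the total, with 1.77, 1.25 and 1.77 FPKM in edf1-D, against 0.75, 0.59 and 0.26 FPKM in WT. In edf1-D replicate 2, the highest library, T009 added 1.5 FPKM and was listed at 0 in the other 5 libraries.

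Next in order among the positive differences, and not past the threshold, was Zm00001eb411600, the gene with 24 transcripts. Its mean was 17.3 ± 2.29 FPKM in edf1-D and 10.4 ± 2.96 FPKM in WT (SD, n = 3 each), a log2 difference of 0.71 ± 0.22 (SE; limma adjusted p = 0.138). All edf1-D libraries were above the WT libraries, WT replicate 1 with 13.8 FPKM lying nearest.

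On the lower side, Zm00001eb041230 stood at 6.68, 8.64 and 4.97 FPKM in edf1-D, against 11.6, 13.6 and 13.9 FPKM in WT. The groups did not overlap, and the log2 difference was -0.88 ± 0.22 (SE; limma adjusted p = 0.0727). This gene passed the threshold under 2 other scalings of the libraries, with adjusted p of 0.0267 after rescaling to TPM and 0.0391 after median-ratio scaling. Within this gene, T010 led in all edf1-D libraries and in WT replicate 2, and T001 in WT replicates 1 and 3. T001 was at 0, 1.96 and 0 FPKM in edf1-D, against 5.38, 0.49 and 5.53 FPKM in WT, so its libraries overlapped. Zm00001eb057250, a low gene with 12 transcripts, stood at 0.62, 0.62 and 0.50 FPKM in edf1-D, against 1.18, 1.88 and 1.23 FPKM in WT (log2 difference -0.61 ± 0.19, SE; limma adjusted p = 0.124).

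The calls in the totals moved with the scaling of the libraries. Median-ratio scaling gave 4 higher genes and 1 lower gene, among them Zm00001eb000620, Zm00001eb061640 and Zm00001eb204260 as higher, with log2 fold changes of 0.43, 0.51 and 0.48. TPM gave 1 higher and 3 lower genes, the lower ones being Zm00001eb019050, Zm00001eb041230 and Zm00001eb344440, with log2 fold changes of -0.76, -1.03 and -0.53. These genes were named for passing under those scalings. Calls rose over the whole table as well, from 681 of 18719 genes as deposited. They were 2203 of 18612 with median-ratio scaling and 2106 of 20579 with TPM, so the rise was not particular to this set. Over all tested genes the median log2 fold change was -0.12 as deposited, 0.00 with median-ratio scaling and -0.22 with TPM. Zm00001eb091740 was called as higher under all 3.

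The isoform shares of these genes did not pass the test between genotypes. In the 28 genes, 78 isoforms with a mean share between 10% and 90% were tested, and 0 of them, in 0 genes, passed (limma on the log2 ratio of an isoform to the sum of the others in its gene, with 1 FPKM added on both sides, Benjamini-Hochberg adjusted p under 0.05 over all 5643 isoforms tested). Among all isoforms and genes of the series that were tested, 0.975% of isoforms and 1.20% of 2671 genes were called. At an unadjusted p under 0.05 there were 8 of the 78 isoforms (10.3%) in 5 genes, against 9.71% of all tested isoforms. The log2 ratios did not overlap between the genotypes in 15 of the 78 (19.2%), against 15.5% over all tested isoforms. The median SE of the log2 ratio was 0.35 in the 78 isoforms and 0.39 over all tested isoforms.

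The smallest p belonged to Zm00001eb119100, a gene whose total overlapped between genotypes. Its T004 held 24.3%, 18.5% and 15.5% in edf1-D, against 6.59%, 5.23% and 8.41% in WT. All edf1-D libraries lay above all WT libraries. In FPKM, T004 stood at 17.6, 10.1 and 7.45 in edf1-D, against 3.93, 3.16 and 4.04 in WT. The log2 ratio to the other isoforms differed by 1.52 ± 0.31 (SE; limma adjusted p = 0.141).

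Other isoforms of Zm00001eb119100 differed in share as well, without passing the test on all 6 libraries. The leading T010 held 35.3%, 41.9% and 39.0% in edf1-D, against 49.5%, 51.9% and 49.9% in WT, without overlap (difference of the log2 ratio -0.67 ± 0.23, SE; limma adjusted p = 0.437). T005 held 17.7% ± 1.51 in edf1-D and 29.0% ± 8.52 in WT (SD, n = 3 each), also without overlap. T001 was listed at 14.0, 10.7 and 10.1 FPKM in edf1-D, against 10.6, 0 and 0 FPKM in WT. WT replicate 1 was thus close to edf1-D for this isoform. On all 6 libraries T001 did not pass (difference of the log2 ratio 2.64 ± 1.02, SE; limma adjusted p = 0.471). Without WT replicate 1 it passed the threshold (difference of the log2 ratio 3.87 ± 0.27, SE; limma adjusted p = 0.00877). This was the one setting in which an isoform of these genes did. The WT values left in it are all 0, so its size and SE rest largely on the added 1 FPKM. Shares of 1 gene sum to 100%, so these isoforms are not independent of each other.

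The next 3 genes by p were Zm00001eb197940, Zm00001eb246800 and Zm00001eb012100, and none of them passed. In Zm00001eb197940, T003 held 1.88%, 0% and 9.84% in edf1-D, against 25.7%, 18.0% and 25.3% in WT (difference of the log2 ratio -1.25 ± 0.34, SE; limma adjusted p = 0.314). The leading T005 of the same gene held 35.4%, 30.7% and 31.4% in edf1-D, against 25.7%, 17.1% and 0.559% in WT. Neither isoform overlapped between the genotypes. T005 led in all edf1-D libraries, while T003, T006 and T001 led in WT replicates 1, 2 and 3.

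In Zm00001eb246800, T010 held 36.7%, 33.0% and 26.2% in edf1-D, against 11.1%, 19.1% and 16.9% in WT (difference of the log2 ratio 0.91 ± 0.28, SE; limma adjusted p = 0.391). The leading T002 of this gene held 56.0% ± 10.8 in edf1-D and 44.2% ± 11.1 in WT (SD, n = 3 each), with overlap. In Zm00001eb012100, T008 held 12.9%, 12.4% and 14.7% in edf1-D, against 28.6%, 17.8% and 22.2% in WT (difference of the log2 ratio -0.71 ± 0.28, SE; limma adjusted p = 0.479). Its leading T001 held 22.9% ± 3.34 in edf1-D and 22.3% ± 2.92 in WT (SD, n = 3 each).

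**Figure D5:**
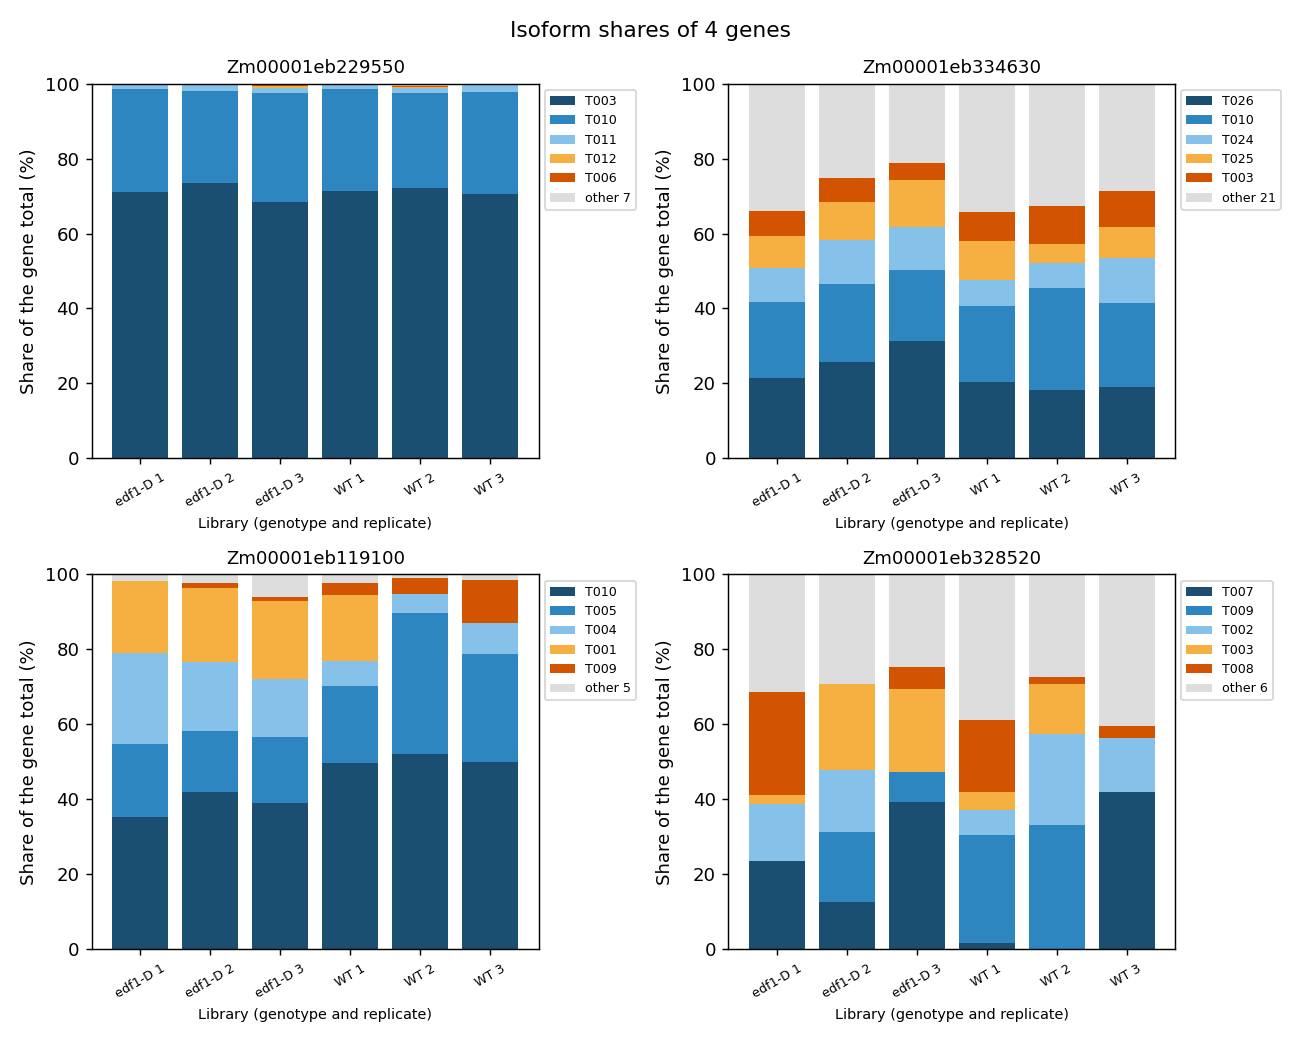
Isoform shares in percent of the gene total in each library for 4 genes, with the 5 isoforms of highest mean share in colour and the rest in grey, edf1-D libraries left of WT libraries. Zm00001eb229550 keeps T003 near 71% throughout, Zm00001eb334630 spreads over many isoforms, T004 of Zm00001eb119100 holds 15.5% to 24.3% in edf1-D and 5.23% to 8.41% in WT, and the isoforms of Zm00001eb328520 change places between replicates.

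How evenly the isoforms were used did not pass the test either. Of the 28 genes 0 had a changed effective number of isoforms (limma on its log2, adjusted p under 0.05 over all 5463 genes tested), against 0.311% of all genes tested. At an unadjusted p under 0.05 there were 6 of 28 (21.4%), a larger share than the 8.24% of all genes tested, and the difference between these shares was not tested. The sets are also unlike. Of the 5832 genes at the same minimum levels, 4649 had 2 to 4 transcripts, with a median effective number of 1.22. In the 28 genes, differences were above 0 in 16 and below 0 in 12. The smallest p was that of Zm00001eb019050, which was named after its values were seen, with an effective number of 2.55 ± 0.402 in edf1-D and 3.67 ± 0.312 in WT (SD, n = 3 each; log2 difference -0.54 ± 0.13, SE; limma adjusted p = 0.347).

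Per library, the medians over the 28 genes lay close together. The leading isoform of each library held a median of 44.2%, 44.4% and 42.3% in edf1-D replicates 1 to 3, against 43.6%, 43.3% and 41.2% in WT replicates 1 to 3. The effective number of isoforms had a median of 3.97, 4.27 and 4.32 in edf1-D, against 4.06, 4.24 and 4.26 in WT. For the isoform with the highest mean share over all 6 libraries, the share was higher in edf1-D in 17 genes and lower in 11, with a median difference of 4.03 percentage points. Over all 5832 genes it was higher in 2917 and lower in 2548, with a median difference of 0.0011 percentage points. These counts and medians are given as a description, without a test, so nothing particular to the 28 genes is drawn from them.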

How the data were processed

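The deposited values, 1 per transcript and library, were read as FPKM from their decimals and unequal sums, since no header states the unit. A partial TPM column would look alike. Per the submitters' processing notes, Trimmomatic 0.36, HISAT2, RSEM and DESeq2 were named, without role or order. The build and the strandedness of the kit are not given in the sources used, and antisense reads may be counted with a gene. Short reads are divided between isoforms by estimation, and reads of near-identical genes may be split, so shares are less certain than totals.

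Transcript values were summed per gene. The planned replacement for a count model, limma (3.58.1, R 4.3.3), was fitted as edf1-D minus WT on the whole table, with an intensity trend for totals, after checks on simulated data. Totals were log2(FPKM + 1) in genes with 0.5 FPKM in at least 3 libraries. Isoform tests needed a mean of 5 FPKM, 1 FPKM in every library and, for diversity, a value that varied. The depth, and so the counting error, is unknown.

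Genes were named by rule: the 2 smallest p among rises and among falls, the 4 smallest isoform p, and the 3 with most transcripts, highest totals, and highest and lowest leading share. The members and tests were chosen with earlier results of these data known.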

Additional observations from a re-analysis of the deposited data

How the results depend on the processing

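Counts of called genes as reported were 1 higher and 0 lower total, 0 with an isoform share change and 0 with a diversity change. Higher totals were 4 with median-ratio scaling, 0 without a filter and 0 at an adjusted p under 0.01. Lower totals were 3 with TPM rescaling and 1 with median-ratio scaling. With 1 library left out, 0 to 0 genes were called as higher, 0 to 0 as lower, 0 to 1 for isoform share and 0 to 0 for diversity, the 1 being without WT replicate 1. These fits hold fewer libraries; the cause was not tested. Deviations of libraries with the same replicate number correlated at -0.19, -0.01 and 0.35 across 18719 genes, so the numbers were not taken to pair the libraries. With the replicate block 1 gene was higher and 0 lower, and 0 had changed isoform shares or diversity; Zm00001eb091740 had an adjusted p of 0.0495. The number of called genes over the whole table went to 951 under this block for totals, against 681.

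The median number of detected isoforms, 3.5, was 6 at 0.1 FPKM and 3 at 1 FPKM, and 3 to 3.5 with 1 library left out. The median leading share, 44.6%, was 46.3% in genes of at least 20 FPKM. Genes with 1 leading isoform in all libraries were 8 to 13 over all alternatives, against 11. A limit of 9 transcripts would give 84 genes and one of 12 would give 11. Of the 8 genes and isoforms tested by name, 0 changed direction in any alternative that held them. They were chosen for a small p in these same data and did not overlap between genotypes. Some alternatives also leave the estimate as it is. This outcome was thus largely fixed in advance, and nothing is drawn from it. Planned count models could not be fitted, as no counts were used here, and the unknown depth limits the low isoforms.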

Other observations

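Among the 28 genes, 3 isoforms in 3 genes reached 5 FPKM in some library of a genotype while another library of that genotype listed them at 0. T023 of Zm00001eb334630 stood at 15.1, 1.90 and 2.38 FPKM in edf1-D replicates 1, 2 and 3, against 15.9, 0 and 0 FPKM in WT replicates 1, 2 and 3. The first library of both genotypes was thus the high one. T005 of Zm00001eb272770 stood at 3.76, 0 and 2.83 FPKM in edf1-D, against 5.57, 2.26 and 0 FPKM in WT. The third was T001 of Zm00001eb119100, at 0 in WT replicates 2 and 3.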
